A study of Mus musculus with 12 samples.

Results

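The cholesterol genes examined here are 7 genes under the control of SREBP2, the transcription factor that turns on the cell's own cholesterol supply. The rule that chose them used their names and no measured values, though it was set with earlier results of these data known, and took them from the 41388 genes of a PFC (prefrontal cortex) RNA-sequencing count table. They comprise Srebf2, which encodes SREBP2 itself, its inhibitor Insig1, and 5 enzymes of the synthesis route: Hmgcs1, Idi1, Fdft1, Sqle and Cyp51. None of the 7 is a receptor, so lipoprotein uptake is described from further genes of the pathway. The samples were hand-dissected medial PFC of male Swiss Webster mice aged 10 weeks, in 3 groups of 4 libraries. CON mice were raised conventionally, GF mice were germ-free for life, and exGF mice were born germ-free and left the isolators on postnatal day 21, after weaning, to be colonized from the environment of the standard animal unit. The diet was the same autoclaved one for all groups, and the labels name no transgene or drug. Each library held polyA RNA pooled at random from 2 to 3 animals of a group, so that every SD and p below describes the spread between pools.

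Brain cholesterol is made locally, because circulating lipoproteins do not cross the blood–brain barrier, and much of it ends up in myelin. When sterols in the endoplasmic reticulum run low, the escort protein SCAP carries SREBP2 to the Golgi, where it is cut and released to the nucleus. It then raises transcription of the mevalonate and sterol enzymes, of genes of lipoprotein uptake and of Insig1, and the INSIG1 protein in turn holds SCAP back. A rise or fall of these mRNAs as a set is therefore widely read as a sign of sterol demand.

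Before any difference, the upstream sequence of the genes is shown where the table of RefSeq starts holds it, since a sterol regulatory element (SRE) next to a CCAAT box is the usual arrangement for SREBP2 targets. Of the 7 genes, 5 had an entry (Hmgcs1, Idi1, Cyp51, Insig1 and Srebf2). In the 250 bases before the start, an SRE core (TCACNCCAC, both strands) was present in 1 of the 5, Hmgcs1, and in 1.05% of all 32851 windows of the same length. A looser SRE-like motif (TCACNNCA, which includes every match of the core) was present in 3 of the 5, Hmgcs1, Cyp51 and Srebf2, and in 11.4% of all windows. The CCAAT box and the GC box (GGGCGG) were each found in 5 of the 5, against 33.8% and 32.7% of all windows. The stretches below are from GRCm38.p6, 5′ to 3′ in the direction of transcription, and cover the part of the window outside the annotated gene. They are shown because they hold the SRE-like matches, and capitals mark SRE-like and CCAAT letters. Hmgcs1 spans chr13:119690101-119690350 (plus strand), Cyp51 chr5:4104747-4104947 (minus strand) and Srebf2 chr15:82147019-82147180 (plus strand).
Hmgcs1: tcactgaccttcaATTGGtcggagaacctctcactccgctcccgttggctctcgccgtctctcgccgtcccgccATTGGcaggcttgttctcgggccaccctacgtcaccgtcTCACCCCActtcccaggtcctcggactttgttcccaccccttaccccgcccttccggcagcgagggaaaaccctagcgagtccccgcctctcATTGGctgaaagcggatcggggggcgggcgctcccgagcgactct
Cyp51: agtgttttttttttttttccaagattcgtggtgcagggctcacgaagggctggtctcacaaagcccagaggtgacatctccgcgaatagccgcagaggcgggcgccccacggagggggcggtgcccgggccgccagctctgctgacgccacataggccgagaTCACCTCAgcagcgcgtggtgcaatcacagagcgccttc
Srebf2: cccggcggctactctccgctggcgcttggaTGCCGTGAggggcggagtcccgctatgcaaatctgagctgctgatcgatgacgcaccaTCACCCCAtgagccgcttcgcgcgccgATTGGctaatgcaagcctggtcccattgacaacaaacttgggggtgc
The Hmgcs1 SRE core lay 137 to 129 bases before the start, with CCAAT boxes on either side of it. The Cyp51 match lay 88 to 81 bases before the start and the nearer Srebf2 match 162 to 155. A match of letters is a description and not a shown binding site, and no match says only that the letters are absent from that window.

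The libraries held 22757169 to 29134760 counts on genes in CON (median 25210592), 13280926 to 23465074 in GF (median 18818716) and 22702599 to 28615407 in exGF (median 26345712). Of the columns in the count table, 8 carry CON and GF numbers. The other 4, GFR1 to GFR4, were taken as the exGF libraries since no other samples remain, and they were not matched to single exGF samples. Markers of cortex cells were all measured, with 6 of 6 neuron and 6 of 6 astrocyte markers passing the filter on low counts. Markers of striatum were 0.96 (log2) above the CON mean in CON2 and 0.95 above it in GFR4.

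All 7 cholesterol genes passed the filter in every comparison. Their levels are given as CPM (counts scaled to library size, TMM-normalized over 12 libraries), and levels of different genes are compared per kilobase of annotated exon. By that measure Hmgcs1, which makes HMG-CoA at the entry to the mevalonate route, was the most abundant at 59.1 ± 6.30 CPM per kb (SD, n = 12). Srebf2 followed at 29.2 ± 1.83 CPM per kb, and the Fdft1 level ran from 20.5 to 29.8 CPM per kb over the libraries. The next were Cyp51 (16.6 ± 1.51), Insig1 (15.0 ± 2.07), Sqle (12.4 ± 0.723) and Idi1 (2.46 ± 0.507 CPM per kb). Each gene exceeded the next one in 10 to 12 of the 12 libraries, and the ranges of Srebf2 and Fdft1, of Cyp51 and Insig1, and of Insig1 and Sqle overlapped. Reads that fit several places or genes were left out, and this order is not corrected for that. Of stretches of 31 bases, 31.9% in Fdft1 and 27.1% in Idi1 occur in other genes, against 1.35% in Srebf2. Idi1 rested on 93 to 259 counts per library. Its own level varied the most within groups (mean CV 20.7%), and Srebf2 varied the least (5.44%), beside a median CV of 10.2% over 9675 genes of like level.

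The comparison of GF with CON asks whether life without a microbiota altered these transcripts. None of the 7 genes passed an adjusted p of 0.1 in edgeR's quasi-likelihood test, where 0.251% of 15542 genes did. DESeq2 also called 0 of the 7. At an unadjusted p under 0.05 there was 1 of 7, Cyp51, against 8.69% of all genes. In 0 of 7 genes were the groups free of overlap in CPM, against 5.08% of all genes. The median log2 fold change of the 7 was 0.13 and that of all genes 0.01, with 5 of 7 above 0.

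Cyp51, the lanosterol demethylase and the first cytochrome P450 step after the sterol ring is closed, had the lowest p. It measured 75.5, 68.5, 68.9 and 67.4 CPM in CON1 to CON4, and 79.4, 77.4, 87.2 and 75.1 CPM in GF1 to GF4. The groups overlapped by a single pair of libraries, CON1 and GF4. The log2 fold change was 0.19 (SE 0.08, 95% interval 0.01 to 0.36, adjusted p = 0.540), from 70.1 ± 3.64 to 79.8 ± 5.26 CPM (SD, n = 4 each).

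Hmgcs1 measured 266.5, 244.7, 262.0 and 281.3 CPM in the CON libraries and 251.0, 309.3, 292.7 and 298.4 CPM in the GF libraries. GF2, GF3 and GF4 lay above every CON library, and GF1, the library with the fewest counts, lay below all but CON2. Its log2 fold change was 0.13 (SE 0.08, 95% interval -0.05 to 0.31, adjusted p = 0.705).

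Idi1, the isomerase that supplies the activated isoprene unit, measured 10.6, 6.14, 7.71 and 9.75 CPM in CON and 6.92, 11.2, 9.99 and 9.86 CPM in GF. The CON values spread over nearly the whole range of the GF values, and GF1 was again the low one of its group. The log2 fold change was 0.16 with a wide interval, -0.24 to 0.56 (adjusted p = 0.857).

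Insig1, the sterol-dependent brake on SREBP2 processing and itself a target of it, measured 52.9, 37.2, 43.1 and 42.5 CPM in CON and 59.4, 44.6, 51.7 and 43.6 CPM in GF. All GF libraries lay above CON2, CON3 and CON4, but CON1 exceeded 3 of them. The log2 fold change was 0.18 (SE 0.12, 95% interval -0.08 to 0.44, adjusted p = 0.720).

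Fdft1 (squalene synthase, the first step committed to sterols) and Sqle (squalene epoxidase, a rate-limiting step after it) had differences in mean close to 0. Fdft1 measured 116.6, 109.9, 113.2 and 107.6 CPM in CON and 112.5, 103.7, 125.8 and 109.9 CPM in GF, a log2 fold change of 0.02 (95% interval -0.16 to 0.19, adjusted p = 0.979). Sqle measured 72.7, 70.0, 67.1 and 73.8 CPM in CON and 66.6, 68.4, 73.5 and 68.2 CPM in GF, a log2 fold change of -0.03 (95% interval -0.20 to 0.13, adjusted p = 0.935). In both genes the highest GF library was GF3, and the groups overlapped almost fully.

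Srebf2, the gene of the transcription factor, measured 216.0, 215.3, 217.7 and 229.7 CPM in CON and 219.7, 202.2, 219.8 and 190.6 CPM in GF. CON1 to CON3 lay close together (215.3 to 217.7 CPM) and CON4 stood above them, while GF2 and GF4 fell below every CON library. The log2 fold change was -0.08 (SE 0.08, 95% interval -0.24 to 0.08, adjusted p = 0.812).

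For all 7 genes the 95% interval lay within a 1.5-fold change in either direction, the widest reaching 1.47-fold (Idi1). Leaving out CON2 lowered the median of the 7 to 0.03, the other libraries left out gave 0.07 to 0.16, and no library left out brought a call.

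**Figure D1:**
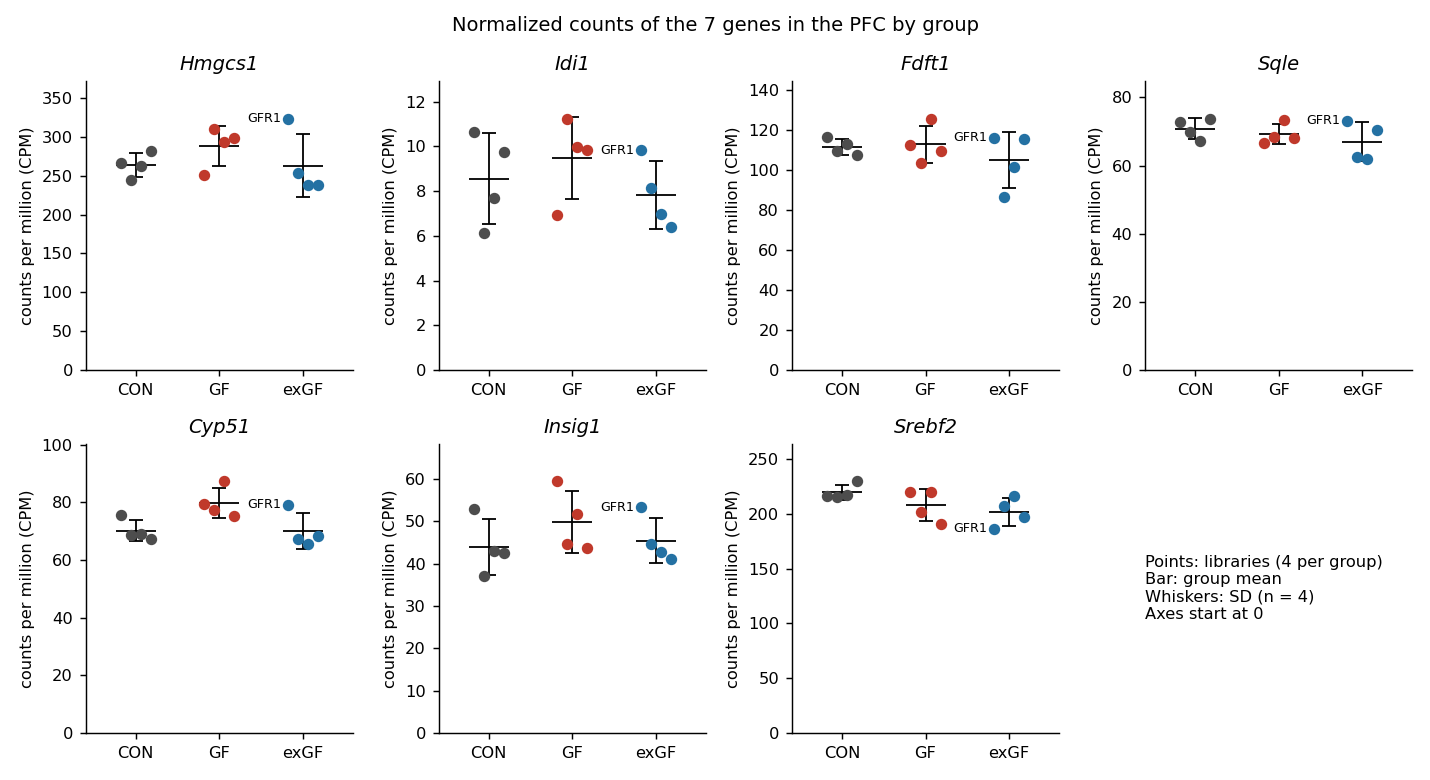
CPM of each gene (vertical axis, starting at 0) in the CON, GF and exGF libraries, with points for the 4 libraries of a group and bars and whiskers for mean and SD. Every gene's groups overlap, and GFR1 is the highest exGF library for 6 genes and the lowest for Srebf2.

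Myelin genes, whose products sit in the cholesterol-rich membrane, were measured in the same libraries. Of 9 markers of mature oligodendrocytes, the cells that make myelin, 6 were called higher in GF and 9 of 9 were above 0, with a median log2 fold change of 0.82. Mobp, a basic protein of the myelin sheath, went from 320.5 ± 44.5 CPM in CON to 636.9 ± 158.7 CPM in GF (SD, n = 4 each), a log2 fold change of 0.99 (95% interval 0.67 to 1.31, adjusted p = 0.0168). Mobp had the highest estimate of the 9 markers, and Cnp the lowest at 0.35 (95% interval 0.04 to 0.65, adjusted p = 0.491). The 95% intervals of all 7 cholesterol genes ended below the markers' median of 0.82, the highest at 0.56. Only 4 of the 7 intervals ended below the lowest marker estimate. The markers' mean level over the list lay 0.40 to 1.12 (log2) above the CON mean in the 4 GF libraries, and that of the 7 genes 0.03 to 0.17. Other marker lists moved as well in GF against CON. Of 4 meninges markers 0 were above 0 and 2 were called lower (median -0.61), 6 of 6 neuron markers were above 0 with 0 called (median 0.15), and microglia markers had a median of -0.18 with 0 of 5 called. Oligodendrocyte precursor, endothelium, striatum and choroid plexus markers had medians of -0.01, -0.04, -0.25 and 0.20 with 0 called. The part of these cell types in the levels of the 7 genes was not tested. In whole tissue, more or fewer cells of a type and more or less RNA per cell cannot be told apart.

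**Figure D2:**
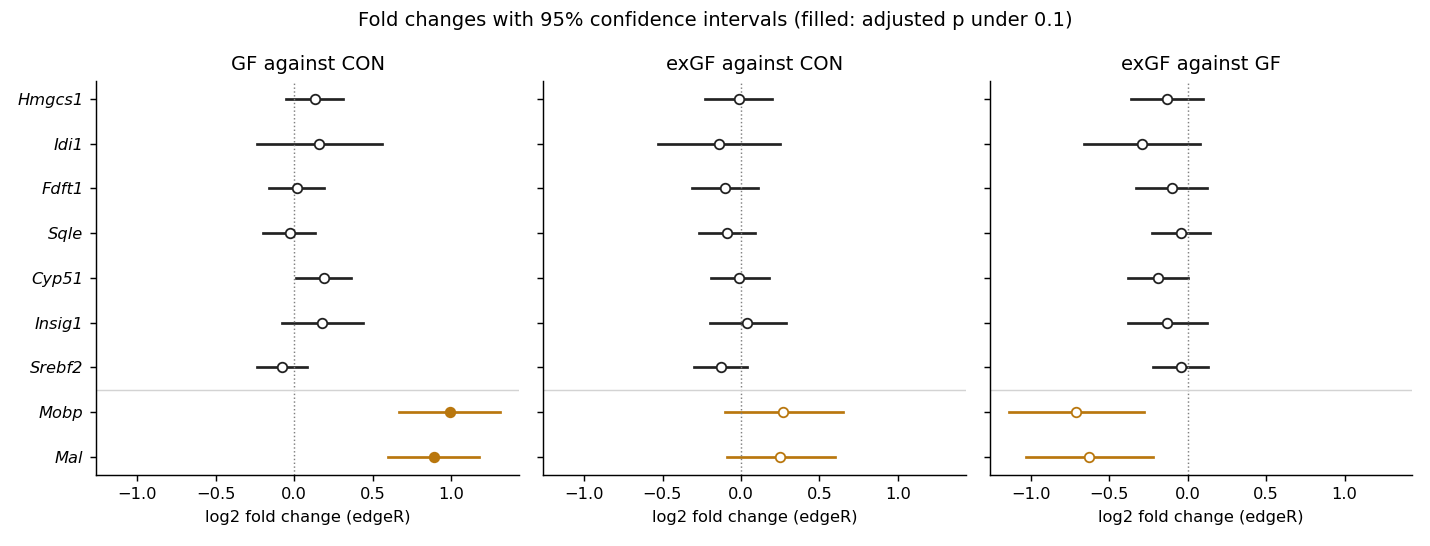
Log2 fold change (horizontal axis) with its 95% interval for the 7 genes and for the myelin genes Mobp and Mal, in 3 comparisons. Filled points have an adjusted p under 0.1, which holds for both myelin genes in GF against CON and for none of the 7.

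The comparison of exGF with CON asks what remained after colonization at weaning, and it shares its CON libraries with the one above. None of the 7 genes was called by edgeR, where 0.0696% of 15813 genes were, and DESeq2 called 0 of the 7 as well. At an unadjusted p under 0.05 there were 0 of 7, against 5.33% of all genes, and 0 of 7 had groups free of overlap, against 3.31%. The median log2 fold change was -0.09, with 1 of 7 above 0, beside -0.01 for all genes.

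Hmgcs1 measured 323.0, 252.9, 237.9 and 237.9 CPM in GFR1 to GFR4. GFR1 was the highest of all 12 libraries, GFR2 lay among the CON libraries, and GFR3 and GFR4 lay below all of them. The group means were close, 263.6 ± 15.1 CPM in CON and 262.9 ± 40.7 CPM in exGF (SD, n = 4 each), with a log2 fold change of -0.01 (95% interval -0.23 to 0.20, adjusted p = 0.997).

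The same library stood highest among exGF for Idi1 (9.82 CPM in GFR1, then 8.16, 6.96 and 6.40 CPM in GFR2 to GFR4), Cyp51 (79.1, then 67.2, 65.5 and 68.4 CPM) and Insig1 (53.3, then 44.6, 42.8 and 41.1 CPM). In Cyp51 the other 3 libraries lay below 3 of the 4 CON libraries or all of them. The log2 fold changes were -0.14 for Idi1 (adjusted p = 0.977), -0.01 for Cyp51 (0.999) and 0.04 for Insig1 (0.995).

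Fdft1 measured 116.3, 86.5, 101.9 and 115.6 CPM in GFR1 to GFR4, and Sqle 73.1, 62.5, 62.1 and 70.5 CPM. GFR2 and GFR3 fell below every CON library in both genes, and GFR1 and GFR4 lay among them. The log2 fold changes were -0.10 for Fdft1 (95% interval -0.31 to 0.11, adjusted p = 0.970) and -0.09 for Sqle (-0.27 to 0.09, adjusted p = 0.968).

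Srebf2 measured 186.4, 207.7, 216.2 and 197.5 CPM in GFR1 to GFR4, so GFR1 was its lowest library of the 12. All exGF libraries but GFR3 lay below every CON library. The log2 fold change was -0.13 (SE 0.08, 95% interval -0.30 to 0.04, adjusted p = 0.952), and the means were 219.7 ± 6.76 and 202.0 ± 12.9 CPM (SD, n = 4 each). The 7 intervals again lay within 1.5-fold.

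Comparing exGF with GF directly, 0 of 7 genes were called and 0.0% of 15569 genes were called in all by edgeR, whereas DESeq2 called 21 genes, none of them among the 7. An unadjusted p under 0.05 was reached by 0 of 7 (6.65% of all genes) in edgeR and by 1 of 7 (6.44% of all genes) in DESeq2, and 0 of 7 had groups free of overlap (3.32%). All 7 log2 fold changes were below 0, from -0.29 (Idi1) to -0.04 (Sqle and Srebf2), with a median of -0.13 beside 0.00 for all genes. The GF libraries here are those compared with CON above, so the values are not independent of that comparison. Cyp51 had the lowest p of the 7, at a log2 fold change of -0.19 (SE 0.09, 95% interval -0.38 to 0.00, adjusted p = 0.739). Of the 7 intervals 6 lay within 1.5-fold, and that of Idi1 reached lower, -0.66 to 0.08.

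The median was -0.21 without GFR1, against -0.14 to -0.09 with any other single library left out. GFR1 held the highest exGF value in 6 of the 7 genes, so leaving it out lowers the exGF means of those genes by construction. Without GFR1, Cyp51 stood at 67.0 ± 1.46 CPM in the 3 remaining exGF libraries (SD, n = 3). The log2 fold changes were then -0.25 for Cyp51 (adjusted p = 0.251), -0.24 for Hmgcs1 (0.267) and -0.42 for Idi1 (0.321), so that 3 of 7 had an unadjusted p under 0.05, as did 13.7% of all 15726 genes tested without GFR1, and 0 of 7 were called. With GFR1 kept, the mature oligodendrocyte markers lay below GF in exGF too, with a median of -0.62 and 0 of 9 called. Of these 9, 6 had an unadjusted p under 0.05 (6.65% of all genes) and 2 had groups free of overlap (3.32%).

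The rest of the pathway was read from 29 further genes: mevalonate and sterol enzymes, sterol sensing, and uptake and trafficking. None was called in any of the 3 comparisons by edgeR or DESeq2. In GF against CON 2 of 29 reached an unadjusted p under 0.05, in exGF against CON 0 and in exGF against GF 1. Over all genes the shares were 8.69%, 5.33% and 6.65%, so these counts do not exceed the background. Their median log2 fold changes were -0.01, -0.03 and 0.00 in those comparisons, close to those of all genes.

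Among the enzymes of the mevalonate route, 8 with Hmgcs1 and Idi1 included, log2 fold changes ran from -0.17 to 0.16 in GF and from -0.18 to 0.04 in exGF, against CON. The 12 enzymes from squalene to cholesterol ran from -0.19 to 0.19 in GF and from -0.19 to 0.14 in exGF. Msmo1, the C4 demethylating oxidase that acts soon after CYP51, had 0.17 in GF (adjusted p = 0.606) and -0.06 in exGF.

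The 6 genes of sterol sensing ran from -0.16 to 0.18 in GF and from -0.14 to 0.04 in exGF, against CON. Scap, the escort of SREBP2, was the 1 gene of the further 29 whose GF and CON libraries did not overlap, a share near the 5.08% of all genes, and was named after its values were seen. It stood at 81.8 ± 0.902 CPM in CON and 73.1 ± 6.75 CPM in GF (SD, n = 4 each). Its log2 fold change was -0.16 (95% interval -0.34 to 0.02, adjusted p = 0.617).

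Uptake and trafficking held both genes with the lowest p of the further 29. Stard4, a carrier of sterols between membranes, measured 30.2 ± 3.31 CPM in CON and 35.4 ± 1.67 CPM in GF, a log2 fold change of 0.23 (95% interval 0.02 to 0.44, adjusted p = 0.514). Lrp1, a large receptor for apolipoprotein E particles, measured 503.4 ± 88.4 CPM in CON, 410.0 ± 19.4 CPM in GF and 488.6 ± 76.8 CPM in exGF (SD, n = 4 each). Its log2 fold change was -0.30 in GF against CON (adjusted p = 0.417) and 0.25 in exGF against GF (adjusted p = 0.736).

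Genes of cholesterol efflux and turnover (8) and of fatty acid synthesis (10) were read alongside, and 0 were called in any comparison. Apoe, the lipoprotein by which astrocytes export cholesterol, measured 1516 ± 295 CPM in CON, 1269 ± 49.8 CPM in GF and 1253 ± 124 CPM in exGF (SD, n = 4 each). Its log2 fold changes against CON were -0.26 (adjusted p = 0.544) and -0.28 (adjusted p = 0.912). The desaturases of polyunsaturated fatty acids Fads1 and Fads2 had -0.19 (adjusted p = 0.440) and -0.23 (adjusted p = 0.508) in GF. In exGF, Acss2, which makes acetyl-CoA from acetate, had 0.17 and the elongase Elovl6 -0.18 (adjusted p = 0.918 each). Markers of astrocytes, the main makers of brain cholesterol in the adult, had medians of -0.02 in GF and -0.07 in exGF with 0 of 6 called.

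**Figure D3:**
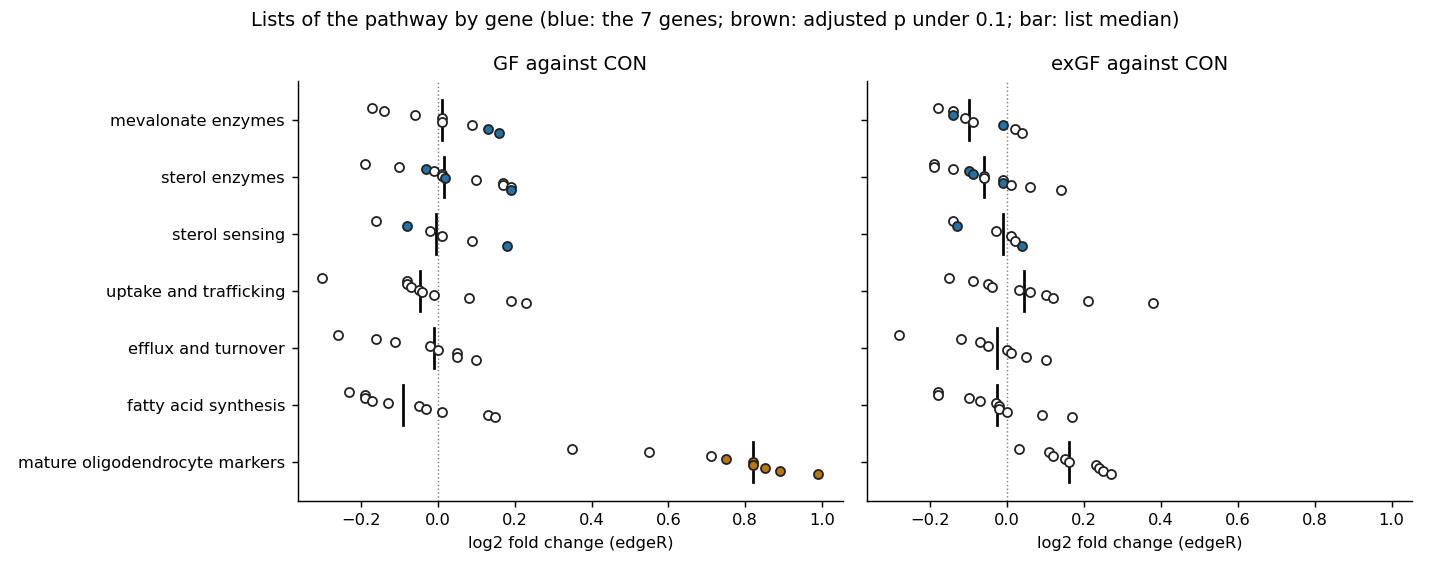
Log2 fold change (horizontal axis) of each gene in 6 lists of lipid genes and in the mature oligodendrocyte markers, for GF and exGF against CON. The lipid lists gather around 0 and the oligodendrocyte markers lie between 0.35 and 0.99 in GF and between 0.03 and 0.27 in exGF.

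Within a group, some libraries were high or low for several of the genes, and others were mixed. Each library's mean deviation over the 7 genes from their means was 0.16 (log2) in GF3, 0.11 in CON1 and in GFR1, and -0.12 to -0.13 in CON2, GFR2, GFR3 and GFR4. CON1 was the highest CON library for 4 genes (Idi1, Fdft1, Cyp51 and Insig1) and CON2 the lowest for 4 (Hmgcs1, Idi1, Insig1 and Srebf2). GFR1 was the highest exGF library for 6 and the lowest for Srebf2. CON4 was the highest CON library for Hmgcs1, Sqle and Srebf2 but the lowest for Fdft1 and Cyp51. GF1 was the highest GF library for Insig1 but the lowest for Hmgcs1, Idi1 and Sqle. GFR3 was the highest exGF library for Srebf2 but the lowest for Sqle and Cyp51. Other sets of genes were not ranked in this way.

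**Figure D4:**
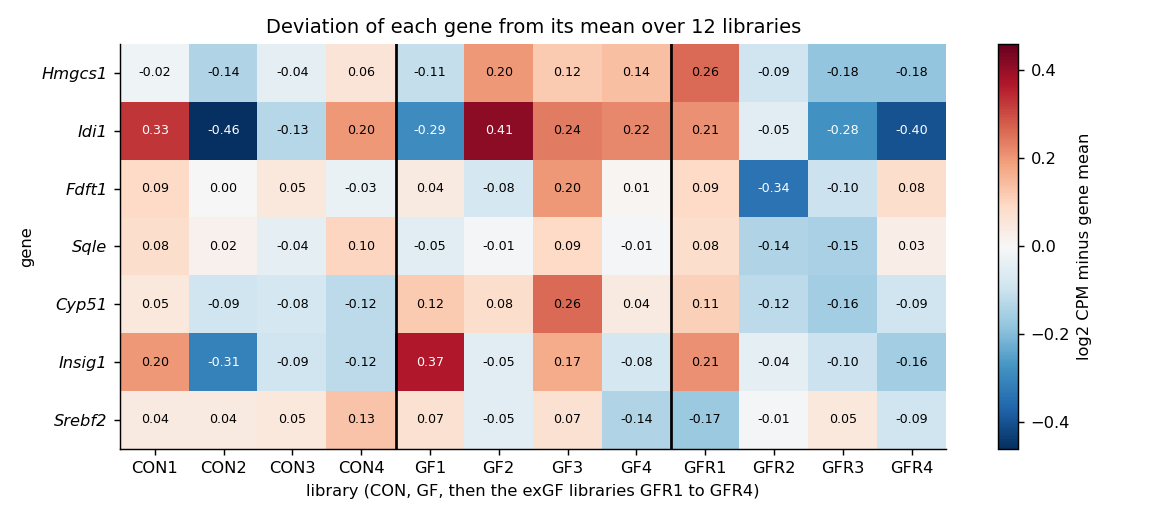
Deviation of each gene's log2 CPM from its own mean over 12 libraries (colour and printed value), with genes in rows and libraries in columns. CON2 and GFR2 to GFR4 are mostly below 0, and in GFR1 every gene but Srebf2 is above 0.

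Over the 12 libraries, all 15 pairs among the 5 enzymes and Insig1 had a Pearson r above 0 (0.12 to 0.85, median 0.47). Idi1 and Fdft1 had an r of -0.01 within groups, and Sqle and Insig1 a Spearman's rho of -0.01. Pairs of other genes were not computed, so the count of pairs above 0 has no background. Hmgcs1 and Idi1 were the closest pair, with r = 0.85 (Spearman's rho 0.83), 0.83 within groups and 0.89 without GFR1. Fdft1 and Sqle had r = 0.75 and Cyp51 and Insig1 r = 0.73. The r of Srebf2 with the other 6 ran from -0.42 (Hmgcs1) to 0.01 (Fdft1), and without GFR1 from -0.17 (Hmgcs1) to 0.26 (Insig1). For Hmgcs1 and Srebf2, Spearman's rho was -0.22 and the r within groups -0.55. These are descriptions, since the libraries of a group share their condition and all genes of a library share its RNA and its depth.

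**Figure D5:**
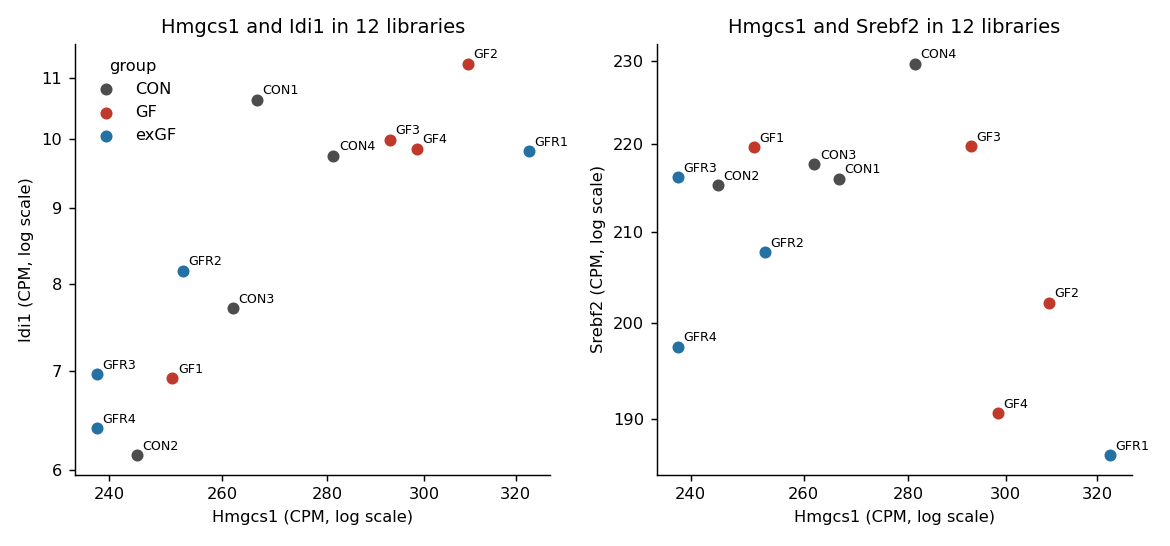
CPM of Idi1 (left) and Srebf2 (right) against Hmgcs1, both axes on a log scale, for 12 libraries coloured by group. Idi1 rises with Hmgcs1 (r = 0.85). Srebf2 is lowest in GFR1, where Hmgcs1 is highest (r = -0.42, and -0.17 without GFR1).

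Properties of the libraries moved with some of these genes. The share of counts that the counting program set aside as aligned to several places was 13.9% to 17.3% in CON, 13.7% to 19.2% in GF and 13.0% to 17.7% in exGF, lowest in GF1 among GF and highest in GFR1 among exGF. CON2, the lowest CON library for 4 genes, had 17.2%, beside 17.3% in CON1, the highest for 4. Over 12 libraries the r of this share was 0.75 with Hmgcs1 (0.71 within groups), 0.70 with Idi1 (0.64) and 0.53 with Cyp51 (0.41). For Sqle it was 0.47 (0.46), for Fdft1 0.13 (-0.01), for Insig1 0.06 (-0.07) and for Srebf2 -0.41 (-0.63). With the mean of the 7 it was 0.57 (0.46), and the r of genes outside the 7 is not given here. With that share as a covariate, the log2 fold change of GF against CON went from 0.16 to 0.04 in Idi1 and from 0.13 to 0.09 in Hmgcs1, and from 0.19 to 0.18 in Cyp51. In exGF against GF, Hmgcs1 went from -0.13 to 0.01 and Idi1 from -0.29 to -0.03, while Cyp51 had -0.15. None of the 7 genes was called in these fits. The log2 of the counts on genes, lowest in GF by median, had an r of -0.61 with Cyp51 (-0.15 within groups) and -0.59 with Insig1 (-0.49). With the other genes its r lay between -0.13 (Hmgcs1) and 0.02 (Sqle). It was not fitted as a covariate, and its part in these levels was not tested.

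The genes whose level over the 12 libraries was most like the mean of the 7 were Ctnna2 (r = 0.91), Trnt1 (0.90), Lbhd1 (0.90), Gm16339 (0.89), Tm7sf3 (0.86), Ahcyl1 (0.86), C330007P06Rik (0.85), Dusp16 (0.84), Tmem126b (0.84) and Pip4k2a (0.84). None of them is in the pathway lists, and the 99th percentile over the 16025 genes compared was 0.73. Of the 29 further pathway genes 19 had an r above 0 (65.5%, against 51.4% of all genes). The highest were the sterol enzymes Msmo1 (0.77) and Sc5d (0.73), and the lowest the receptor Lrp8 (-0.65).

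Some of these genes share sequence with others, and reads that fit several places or several genes were left out of their counts. The exons of Fdft1 (ENSMUSG00000021273, chr14:63145150-63179578, minus strand) overlap those of Ctsb on the other strand, and reads were counted without strand. Of its 31-base words 31.9% occur in other genes, 17.6% in Ctsb, which held 8187 to 16804 counts per library and had log2 fold changes of 0.05 in GF and -0.01 in exGF against CON. For Idi1 (ENSMUSG00000058258, chr13:8885501-8892451) the share was 27.1%, most of it with Gm13502, and for Hmgcs1 (ENSMUSG00000093930, chr13:119690379-119708260) 13.1%. Of the Hmgcs1 words, 10.9% occur in Gm48342, which overlaps it on the other strand and is not among the counted genes. Reads there were therefore not set aside as fitting both genes. The share was 3.88% for Cyp51 (ENSMUSG00000001467, chr5:4081145-4104746), whose exons overlap those of Akap9 on the other strand. It was 3.46% for Insig1 (ENSMUSG00000045294, chr5:28071363-28078662), 1.35% for Srebf2 (ENSMUSG00000022463, chr15:82147181-82205379) and 0.969% for Sqle (ENSMUSG00000022351, chr15:59315077-59331192), on GRCm38.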

How the data were processed

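The authors trimmed paired reads with Trimmomatic 0.32, aligned them with STAR to GRCm38.p3 and counted pairs per Ensembl gene with HTSeq 0.6.0 without strand, as given in the paper's methods and the submitters' processing notes. The deposited values are raw counts, 1 column per library, with no normalization. Per the file, counts outside genes (4.57% to 7.31% per library), on several genes (1.10% to 1.32%) and aligned to several places (13.0% to 19.2%) stand in rows of their own and were left out of the tests.

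Symbols, coordinates and exon lengths came from a GRCm38 annotation (40340 of 41388 IDs matched), and upstream sequence from RefSeq (GRCm38.p6). With R 4.3.3 and edgeR 4.0.16, each pair of groups was filtered by filterByExpr, normalized by TMM and tested by quasi-likelihood, and p-values were adjusted by Benjamini-Hochberg over all genes tested. Calls were made at 0.1, as in the paper's methods. Intervals are 95% intervals from the fitted standard errors. CPM and the correlations of log2 CPM (prior count 1) used TMM over 12 libraries (16032 genes kept). Levels between genes were divided by the length of the union of exons. The analysis was tested on simulated data.

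The 7 genes, the pathway lists and the marker lists were chosen with earlier results of these data known. Of the list genes outside the 7, those called and, per list and comparison, the 2 with the lowest unadjusted p under 0.05 were named. Msmo1, Scap and the markers Mobp and Mal were named beyond that rule, after their values were seen. Some single genes of the lists are left unreported. Likeness named the 10 genes of highest r.

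The alternatives comprised upper-quartile and RLE normalization, no filter, at least 10 counts in every library, DESeq2 1.42.0, a single fit of 12 libraries, a threshold of 0.05, each library left out and the replicate number as a block. The share aligned to several places as a covariate was added after the data were seen. Pairs of libraries in a group had mean chi-square values per gene of 8.93 to 39.8 (about 1 from sampling alone), so no library was a repeat of another, and the spread between pools outweighed counting error for these genes.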

Additional observations from a re-analysis of the deposited data

Results flagged for a closer look

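Single libraries stood apart from the other 3 of their group by Dixon's test in 5 of 69 sets of values tested, where chance alone flags about 1 in 20. Among the 7 genes there was 1, Srebf2 in CON4, at 229.7 CPM against 215.3 to 217.7 CPM in the other CON libraries. The rest were mean log2 levels of lists, relative to the CON mean. The uptake and trafficking list was lowest in GFR4 at 0.03, in a group that reached 0.08. Choroid plexus markers, of which 2 of 4 passed the filter, were highest in GF1 at 1.46. Striatum markers were highest in CON2 at 0.96 among CON and lowest in GF1 at -0.27 among GF. The part of these tissues in the levels of the 7 genes was not tested.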

How the results depend on the processing

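None of the 7 genes and none of the 29 further pathway genes was called in any comparison under any alternative. The lowest adjusted p of a member was 0.42 (Hmgcs1 without GF replicate 1) in GF against CON, 0.746 (Srebf2 without CON replicate 4) in exGF against CON and 0.251 (Cyp51 without GFR1) in exGF against GF. Over all genes DESeq2 called 198, 60 and 21 genes against 39, 11 and 0 by edgeR, the fit with no filter called 221, 48 and 32, and the covariate fit called 78, 12 and 3. With 4 pools a group, these data limit a change to within the intervals given and do not show that there was none.

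The median of the 7 in GF against CON was 0.13, and 0.03 to 0.16 with a library left out, lowest without CON2. With the share aligned to several places as a covariate it was 0.04. Signs changed only where values were near 0, apart from Hmgcs1 in exGF against GF, which had -0.13 and, with that covariate, 0.01. Fdft1 in GF against CON had 0.00 with no filter and -0.04 to 0.05 with a library left out. In exGF against CON, Hmgcs1 had 0.00 with no filter, 0.02 with the covariate and -0.11 to 0.05 with a library left out. Cyp51 had 0.00 with upper-quartile normalization, 0.01 with no filter, 0.02 with the covariate and -0.06 to 0.04 with a library left out, and Insig1 had -0.03 to 0.15 with a library left out. Apart from what each alternative changes, the cause was not tested.

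CON and GF share replicate numbers, but same-numbered libraries did not deviate together (r from -0.235 to 0.183 over 10442 genes, and 0 of 4 CON libraries correlated best with its own number). The replicate block gave a median of 0.12, 0 of 7 called and 51 calls over all genes. No paired analysis was possible for exGF because its columns were not matched to sample numbers.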
